A study of Mus musculus with 9 samples.

Results

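Galectins were followed across the 9 RNA libraries of the series through 5 genes taken by symbol from the deposited table of 24421 genes: *Lgals1*, *Lgals3*, *Lgals8* and *Lgals9*, which encode galectins, and *Lgals3bp*, which encodes a galectin-binding glycoprotein. All 5 were found in the table and all 5 passed the filter on low counts in both comparisons. The question of the series was how SB28 tumor cells grown in the brain differ between vehicle-treated mice and mice given BAL101553. SB28 is a mouse glioma line that carries GFP and luciferase and was implanted in the brains of C57BL/6 mice aged 6 to 8 weeks. BAL101553 is an oral prodrug of a microtubule-binding agent that activates the spindle assembly checkpoint. The first group comprised 3 libraries of sorted CD45-CD11b-GFP+ cells from vehicle control mice after 21 days of growth (hereafter control 1 to 3). The second comprised 3 libraries from the same sort of BAL101553-treated mice, taken at 33 days in the study's account of its results and at 35 days in its methods (BAL101553 1 to 3), so treatment and time of growth cannot be told apart. The third comprised 3 libraries whose labels give astrocytes as the cell type and BAL101553 as the treatment; the text of the study does not describe how these cells were obtained. The labels call the first 2 groups whole tissue, whereas the methods describe sorted tumor cells of 1 implanted line. Figure legends of the study speak of biological replicates, and its methods describe fewer sequenced samples per group than the table holds. The methods also place the study's sequence data in another series, so the sort, days of growth and ages above are taken from the study's text. No source used here says which libraries the described samples were or whether each library came from a separate mouse. The p-values therefore measure the spread between these libraries, which may be in part technical.

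Total counts lay between 24540452 and 28761388 in the controls, between 26667789 and 34013875 after BAL101553, and between 22919523 and 29230743 in the libraries labelled astrocytes. Every pair of libraries within a group differed by more than sampling noise (chi-square of 14.9 to 68.4 for each degree of freedom). Marker lists were read as summed counts per 1000000 (CPM, scaled by the trimmed mean of M values over all 9 libraries). The list of 14 microglia and macrophage genes summed to 15.6 to 24.0 CPM in the controls and 20.2 to 25.2 CPM after BAL101553, with none of the 14 at 0 in any library. Most of these sums came from *Cd14* (mean 10.5 CPM in the controls and 15.3 CPM after BAL101553) and *Cd68* (4.05 and 3.97 CPM). In the libraries labelled astrocytes, the 7 astrocyte markers summed to 11785 to 14508 CPM, but 6 oligodendrocyte markers summed to 10282 to 12723 CPM and the microglia list to 584 to 1319 CPM, so the label is met by its own markers together with those of other brain cells. Endothelial genes summed to 181 to 210 CPM and neuronal genes to 13.5 to 15.4 CPM there, with none at 0. In bulk samples of this kind, fewer cells of a type and less RNA per cell cannot be told apart.

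Galectins are lectins that recognize β-galactoside sugars on glycoproteins and glycolipids. They are made in the cytosol and leave the cell without a signal peptide, after which they crosslink receptors at the surface of tumor, immune and endothelial cells; inside the cell they also mark damaged endosomes and lysosomes whose luminal sugars have become exposed. Galectin-1 (*Lgals1*) is a prototype galectin that acts as a dimer and is known in glioma for roles in invasion and in restraint of T cells and NK cells. Galectin-3 (*Lgals3*) is the chimera type and carries a repetitive N-terminal tail, and it is also abundant in activated microglia and macrophages. Galectin-8 (*Lgals8*) and galectin-9 (*Lgals9*) are tandem-repeat types. In human cells, galectin-8 recruits the autophagy receptor encoded by *Calcoco2* to damaged vesicles, and galectin-9 is a ligand of TIM-3, a checkpoint receptor of T cells. The product of *Lgals3bp* is a secreted, heavily glycosylated scavenger-receptor protein that binds galectin-3. *Lgals9* and *Lgals3bp* are both known as interferon-inducible genes. The study counts *Lgals3* among genes regulated by interferon-gamma and reports it higher in SB28 cells taken from the brain than in culture. It reports no significant difference in its interferon-gamma signature between SB28 cells of control and BAL101553-treated mice.

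The genes lie apart from each other in the genome. In the GENCODE vM21 annotation of GRCm38, *Lgals1* lies on chromosome 15 (78926725 to 78930465, plus strand), *Lgals3* on chromosome 14 (47367751 to 47386160, plus strand) and *Lgals8* on chromosome 13 (12439415 to 12464944, minus strand). *Lgals9* and *Lgals3bp* lie on chromosome 11 on the minus strand, at 78962974 to 78984946 and at 118392751 to 118402092. Of the exon bases of *Lgals8*, 155 (4.20%) overlap *Heatr1* on the other strand. Use of the strand in counting was not stated in the sources used here, so reads from these bases could belong to either gene.

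Because *Lgals9* and *Lgals3bp* ranked the tumor libraries much as the interferon-response genes did (below), their promoters are shown, each from 250 bases before to 50 bases after the transcription start as given by RefSeq on GRCm38.p6. A promoter entry was matched for 4 of the 5 members. In the *Lgals9* promoter (chr11:78984875-78985174, minus strand), capitals mark matches to 2 copies of GAAA separated by any 2 bases, the core of the interferon-stimulated response element, searched on both strands.
Lgals9 promoter: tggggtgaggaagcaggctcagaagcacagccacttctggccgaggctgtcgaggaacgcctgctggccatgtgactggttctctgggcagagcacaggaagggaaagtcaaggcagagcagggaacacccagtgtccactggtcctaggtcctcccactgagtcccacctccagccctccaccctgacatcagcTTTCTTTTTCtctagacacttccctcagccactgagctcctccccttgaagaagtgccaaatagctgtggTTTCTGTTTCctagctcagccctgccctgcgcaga
The *Lgals9* promoter held 2 matches, both on the reverse strand, read here as TTTCTTTTTC at 55 to 46 bases before the start and TTTCTGTTTC at 15 to 24 bases after it. Of 32851 promoters of the same length, 1131 (3.44%) held at least 1 match and 74 (0.225%) held 2 or more, and among 17 promoters of the interferon-response genes listed below, 8 (47.1%) held at least 1. The promoters of *Lgals3* and *Lgals8* held no match to this core, so it was found in 1 of the 4 member promoters. A role of these matches in the library order was not tested. In the *Lgals3bp* promoter (chr11:118401910-118402209, minus strand) this core was not found, and capitals mark a match to the shorter core AANNGAAA, a search that was added after the promoter had been read and which every match of the longer core also holds.
Lgals3bp promoter: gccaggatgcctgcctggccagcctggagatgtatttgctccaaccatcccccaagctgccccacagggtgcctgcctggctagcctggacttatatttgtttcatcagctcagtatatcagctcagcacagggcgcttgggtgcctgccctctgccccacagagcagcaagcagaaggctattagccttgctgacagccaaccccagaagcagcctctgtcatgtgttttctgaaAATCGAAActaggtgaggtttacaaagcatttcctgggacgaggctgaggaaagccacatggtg
The short core lay 14 to 7 bases before the RefSeq start of *Lgals3bp*, and 7857 of the 32851 promoters (23.9%) held it at least once, so a match of this kind is common. GENCODE draws *Lgals3bp* out to 118402092, upstream of the RefSeq start, so this site lies inside the gene in that annotation. The GENCODE end of *Lgals9*, at 78984946, also lies upstream of its RefSeq start, so the distances given here hold for RefSeq only. The gamma-activated site TTCNNNGAA, present in 2726 promoters (8.30%), was found in 0 of the 4 member promoters. A match is a stretch of letters and not a measured binding site.

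*Lgals1* was by far the most abundant member in SB28 cells. Its CPM was 3407, 3277 and 3375 in control 1, 2 and 3, and 3023, 2788 and 3117 in BAL101553 1, 2 and 3. All 6 tumor libraries therefore lay within a narrow band of high values. To compare levels between genes, CPM was divided by the length of the exon union in kilobases. On this scale, the level of *Lgals1* was 3713 ± 75.2 CPM per kilobase in the controls and 3296 ± 188 after treatment with BAL101553 (SD, n = 3 each). It accounted for 93.1% to 94.0% and for 89.7% to 94.0% of the summed level of the 5 members.

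*Lgals3*, the chimera-type galectin, ranked next. Its level was 175 ± 12.6 CPM per kilobase in the controls and 183 ± 47.0 after BAL101553 (SD, n = 3 each). *Lgals3bp* followed at 60.0 ± 19.6 and 65.0 ± 26.8 CPM per kilobase. The tandem-repeat genes were lowest, with *Lgals9* at 14.3 ± 6.21 and 17.9 ± 5.60 and *Lgals8* at 12.4 ± 0.596 and 13.9 ± 1.14 CPM per kilobase. In both tumor groups the libraries of *Lgals9* and *Lgals8* overlapped, so the order of this pair was within the spread, whereas *Lgals1*, *Lgals3*, *Lgals3bp* and the lower pair did not overlap each other.

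The libraries labelled astrocytes had a different order. *Lgals3bp* was highest at 28.3 ± 1.42 CPM per kilobase, followed by *Lgals1* at 18.6 ± 5.94, *Lgals8* at 12.5 ± 0.203, *Lgals3* at 7.89 ± 2.20 and *Lgals9* at 4.84 with a range of 3.69 to 5.50 (mean ± SD, n = 3 each). No neighbours among the 5 members overlapped in this group. The share of *Lgals1* in the summed level was 21.6% to 31.4% and that of *Lgals3bp* 33.5% to 44.4%. The order of the 5 members in each of the 3 groups was unchanged when the length of the longest transcript replaced the exon union. On that length, however, *Lgals1* and *Lgals8* overlapped in the libraries labelled astrocytes.

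**Figure D1:**
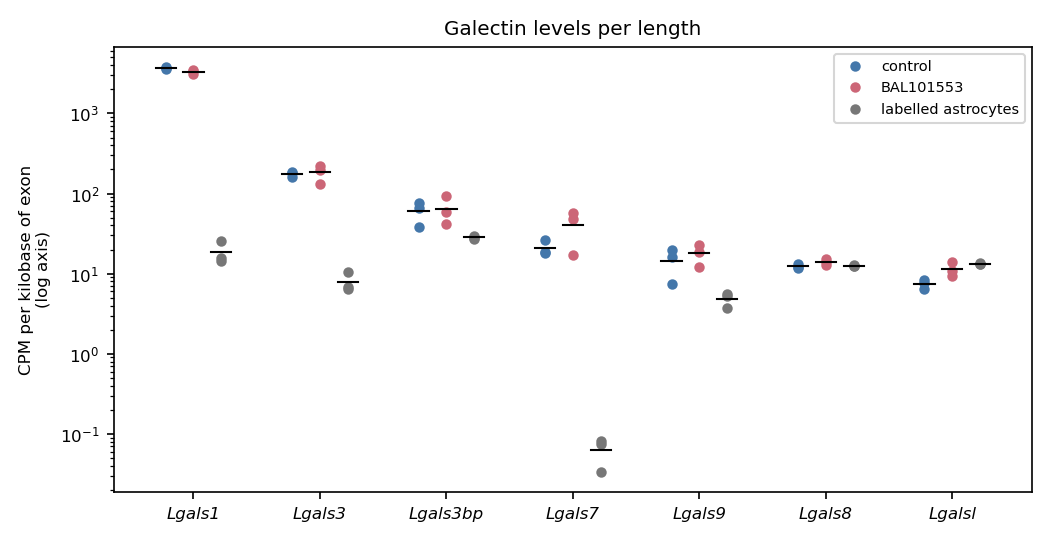
Level of 7 galectin family genes in CPM per kilobase of exon (vertical log axis) for each of the 9 libraries (points, colored by group), with the group mean as a bar. *Lgals1* lies above all others in the control and BAL101553 libraries and falls to between *Lgals3bp* and *Lgalsl* in the libraries labelled astrocytes, whereas *Lgals8* lies near the same level in all 3 groups.

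The first comparison asked whether galectin transcripts in tumor cells differed between BAL101553-treated and control mice. None of the 5 members passed the test, in a comparison in which 14.7% of 12633 tested genes did (edgeR's quasi-likelihood test, Benjamini-Hochberg adjusted p under 0.05 over all genes tested). Of all tested genes, 8.64% were called higher and 6.09% lower after BAL101553, against 0 and 0 of the members. Higher genes made up 58.7% of the 1860 calls, and 77.4% of 1881 calls when libraries were scaled by total counts. At an unadjusted p under 0.05 there were again 0 members, against 4306 of all tested genes, and 0 passed under DESeq2, edgeR's exact test or limma-trend. Library values of 1 of the 5 members did not overlap between the groups, against 39.7% of all tested genes. The median log2 fold change of the members was 0.12, beside 0.02 over all genes.

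*Lgals1* was the member whose groups did not overlap, with every BAL101553 library below every control library in the CPM values given above. Its log2 fold change was -0.17 (SE 0.093, 95% interval -0.38 to 0.05, adjusted p = 0.243), and the interval spans ratios of BAL101553 to control from 0.767 to 1.03. The value stayed between -0.20 and -0.13 with any 1 library left out. *Gja1*, which gave most of the astrocyte marker sum in tumor cells, and *Cdh5*, which gave most of the endothelial sum, also fell between these groups. *Gja1* fell by 0.37 (adjusted p = 0.0363) and *Cdh5* by 0.52 (adjusted p = 0.0195) on the log2 scale. The astrocyte list did not move as a whole: of 5 tested markers, 1 was called lower and 1 higher, with a list median of 0.18. The gene called higher was *Slc1a3* (from 13 to 17 reads in the controls to 38 to 75 reads, log2 fold change 1.57, adjusted p = 0.0403). Of 6 endothelial markers 1 was called lower and 0 higher. The endothelial list median was -0.61, beside 0.02 over all genes, with *Flt1* on the other side at 0.30. The marker sums went from 940 to 971 CPM in controls to 681 to 797 CPM for astrocyte genes, and from 740 to 868 to 516 to 647 CPM for endothelial genes. Their part in the *Lgals1* values was not tested.

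*Lgals3* varied more after BAL101553 than before. Its CPM was 338, 299 and 340 in control 1, 2 and 3 and 369, 410 and 242 in BAL101553 1, 2 and 3, so the treated group held both the highest and the lowest of the 6 libraries. With a log2 fold change of 0.07, it was not called (SE 0.19, 95% interval -0.36 to 0.50, adjusted p = 0.820). Its sign depended on single libraries, at -0.0015 without control 2 and -0.09 without BAL101553 2, within a range up to 0.27.

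*Lgals8* was the steadiest of the tandem-repeat genes. Its CPM was 43.9, 48.2 and 45.0 in the controls and 47.1, 55.6 and 51.3 after BAL101553, with control 2 above BAL101553 1. The log2 fold change was 0.17 (SE 0.099, 95% interval -0.06 to 0.40, adjusted p = 0.254), and it lay between 0.11 and 0.23 with any 1 library left out.

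*Lgals9*, the TIM-3 ligand, spread widely within both groups. Its CPM was 15.9, 41.6 and 34.4 in control 1, 2 and 3, and 25.5, 49.3 and 40.1 in BAL101553 1, 2 and 3. Library 1 was the lowest and library 2 the highest of each group, and the groups overlapped over most of their ranges. The log2 fold change was 0.33 (SE 0.35, 95% interval -0.49 to 1.15, adjusted p = 0.546), which left room for ratios from 0.713 to 2.21. Control 1 weighed on the value, which was 0.015 without it, 0.60 without control 2 and 0.55 without BAL101553 1.

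*Lgals3bp* followed the same library pattern. Its CPM was 108, 215 and 189 in control 1, 2 and 3, and 120, 269 and 167 in BAL101553 1, 2 and 3. Between the groups it differed by 0.12 on the log2 scale (SE 0.33, 95% interval -0.63 to 0.88, adjusted p = 0.815). It turned to -0.12 without control 1 and to -0.25 without BAL101553 2, and reached 0.36 without BAL101553 1.

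**Figure D2:**
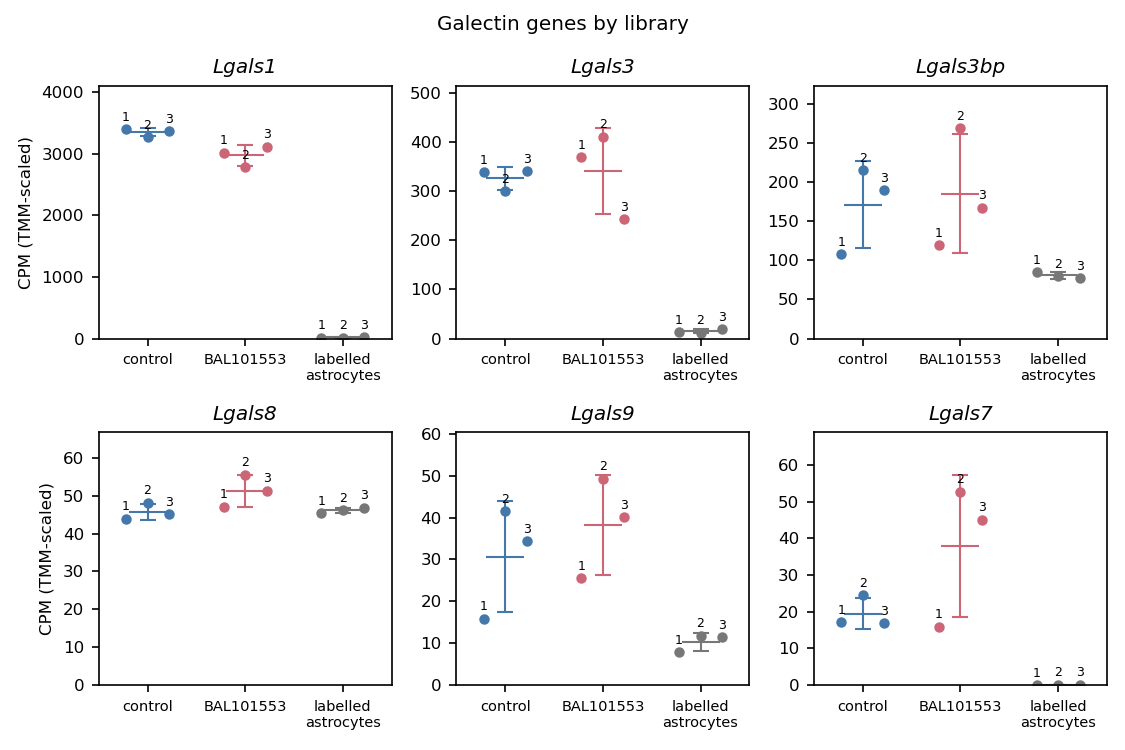
CPM (vertical axis, from 0) of the 5 members and *Lgals7* in each library, with the group mean and SD (bars, n = 3) and the replicate number beside each point. *Lgals1* and *Lgals3* fall to near 0 in the libraries labelled astrocytes, *Lgals8* stays between 43.9 and 55.6 CPM in all 9, and *Lgals9* and *Lgals3bp* are lowest in library 1 of both tumor groups.

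**Figure D3:**
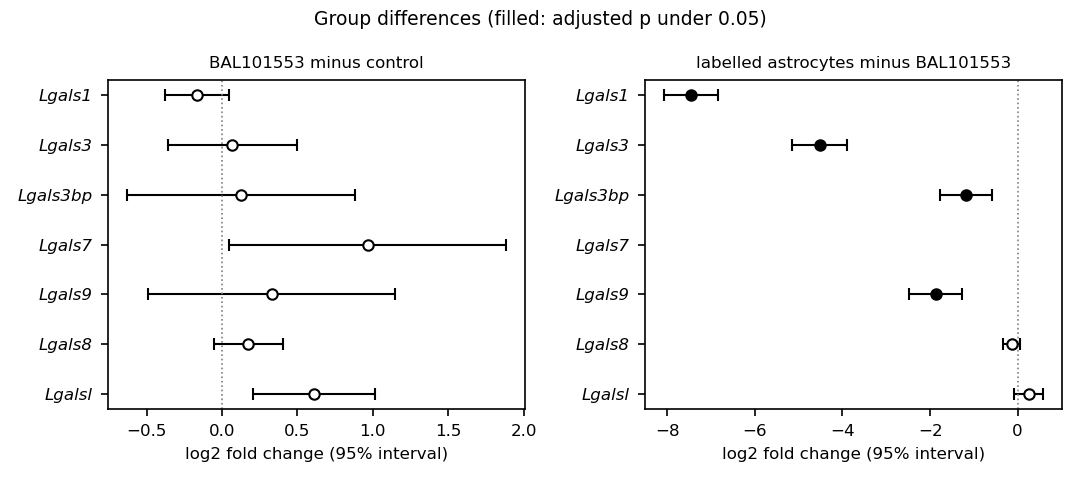
Log2 fold change (horizontal axis) with its 95% interval for 7 galectin family genes, BAL101553 minus control on the left and libraries labelled astrocytes minus BAL101553 on the right, from edgeR's quasi-likelihood test. Filled points have an adjusted p under 0.05: none on the left, and *Lgals1*, *Lgals3*, *Lgals3bp* and *Lgals9* on the right, where *Lgals7* is not drawn because it had 5 reads in the libraries labelled astrocytes.

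The spread within groups set *Lgals9* and *Lgals3bp* apart from the other members. The highest control library exceeded the lowest 2.62-fold for *Lgals9* and 1.99-fold for *Lgals3bp*, and after BAL101553 1.93-fold and 2.25-fold. For *Lgals8* these ratios were 1.10 and 1.18, and for *Lgals1* 1.04 and 1.12. *Lgals3* spread 1.14-fold in the controls and 1.69-fold after BAL101553, with BAL101553 3 lowest.

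The library order of both genes was close to that of a list of 16 interferon-response genes, which includes transcription factors of the pathway (*Irf7*, *Irf9*) and its targets (*Ifit1*, *Isg15*, *Bst2*). Summed CPM of this list ran from 505 to 1047 in the controls (2.07-fold) and from 537 to 1251 after BAL101553 (2.33-fold). From lowest to highest, the list sum ordered the tumor libraries as control 1, BAL101553 1, BAL101553 3, control 2, control 3 and BAL101553 2. *Lgals3bp* gave the same order except that control 2 and control 3 changed places. *Lgals9* gave control 1, BAL101553 1, control 3, BAL101553 3, control 2 and BAL101553 2. *Lgals8*, whose values spread little, also had control 1 lowest and BAL101553 2 highest, with control 3, BAL101553 1, control 2 and BAL101553 3 between them. *Lgals1* was lowest in BAL101553 2, the library with the highest list sum. *Lgals3* was highest in BAL101553 2 but lowest in BAL101553 3. These orders are descriptions over 6 libraries that share 1 scaling, and control and BAL101553 libraries both run from low to high.

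**Figure D4:**
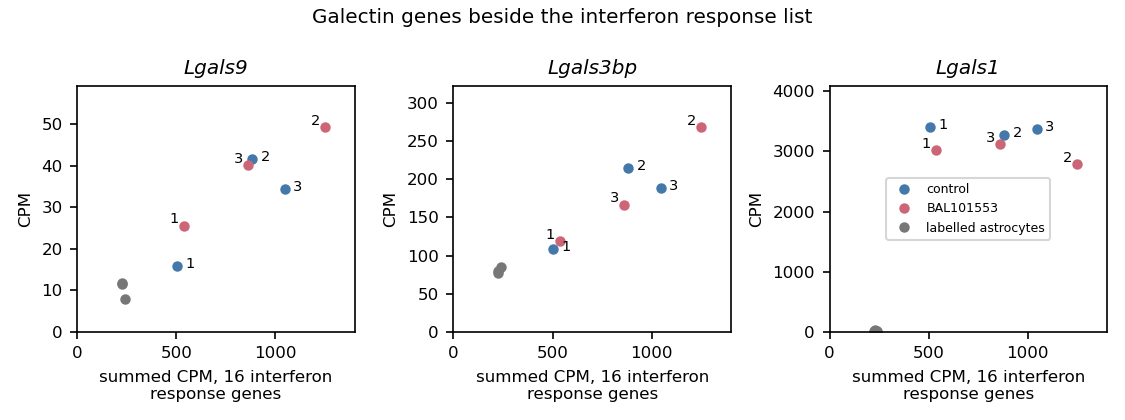
CPM of *Lgals9*, *Lgals3bp* and *Lgals1* (vertical axes, from 0) against the summed CPM of 16 interferon-response genes (horizontal axis) in the 9 libraries, colored by group, with replicate numbers beside the tumor libraries. *Lgals9* and *Lgals3bp* are lowest where the sum is lowest among tumor libraries (control 1 and BAL101553 1) and highest in BAL101553 2, whereas *Lgals1* stays between 2788 and 3407 CPM in all 6 tumor libraries.

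The genes with the most similar profiles over all 9 libraries were sought among 10144 genes with a mean of at least 10 CPM, by the root mean square difference of centered log2 CPM. For *Lgals9* these were *Tfpi* (0.19), *Tap1*, a peptide transporter of antigen presentation (0.21), and *H2-K1*, an MHC class I chain (0.28). Reads of *H2-K1* can be shared with *H2-D1*, so this value is uncertain. For *Lgals3bp* they were *Ifit2* (0.19) and *Irf9* (0.20), both of the interferon response, and *Rnf219* (0.23). The other members had different neighbours. *Lgals1* was closest to *Adamts14* (0.14), *Igf2bp2* (0.25) and *3300005D01Rik* (0.26), *Lgals3* to *Lrrfip1* (0.16), *Ska3* (0.18) and the intermediate filament gene *Vim* (0.20), and *Lgals8* to *Crlf3* (0.043), *N4bp2l2* (0.049) and *Zkscan6* (0.052). These measures describe 9 libraries of unlike cells that share 1 scaling.

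The second comparison set the libraries labelled astrocytes against the BAL101553 tumor libraries, which carry the same treatment label. It was a comparison of unlike cells, in which 85.1% of 15314 tested genes passed the test, 46.3% higher and 38.9% lower in the libraries labelled astrocytes. Of the 5 members, 0 were called higher and 4 lower, and library values of all 5 did not overlap between the groups, against 87.8% of all tested genes. The median log2 fold change was -1.87 over the members and 0.18 over all genes. When libraries were scaled by total counts instead, the median over all genes moved to 0.39. *Lgals1*, *Lgals3*, *Lgals9* and *Lgals3bp* were called lower under all 15 alternatives.

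The fall was steepest for the 2 genes most abundant in the tumor. *Lgals1* had 13.1, 14.3 and 22.9 CPM in the libraries labelled astrocytes, below every tumor library, where the lowest value was 2788. Its log2 fold change was -7.46 (SE 0.27, adjusted p = 1.10e-07), a level 176-fold lower (95% interval 114 to 272). *Lgals3* had 12.7, 11.9 and 19.4 CPM, with a log2 fold change of -4.52 (SE 0.27, adjusted p = 1.32e-06) whose 95% interval spans levels 14.9-fold to 35.4-fold lower. For both genes, the third library labelled astrocytes was the highest of its group.

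*Lgals9* and *Lgals3bp* differed less. *Lgals9* had 7.89, 11.8 and 11.4 CPM and was 3.66-fold lower than in the BAL101553 libraries (95% interval 2.41 to 5.54; adjusted p = 0.000193). The summed microglia markers of these 3 libraries also were lowest in the first, and highest in the second, as *Lgals9* was. *Lgals3* had another order, lowest in the second library (11.9 CPM) and highest in the third (19.4 CPM). The part of microglial RNA in the values of either gene was not tested. *Lgals3bp* had 85.0, 79.7 and 77.1 CPM and was 2.26-fold lower (95% interval 1.50 to 3.41; adjusted p = 0.00259). Of the 16 interferon-response genes, 15 were called lower in these libraries and 0 higher, against 38.9% and 46.3% of all tested genes. The list median was -2.13, beside 0.18 over all genes, and the summed CPM was 225 to 241. *Lgals3bp* in the lowest tumor libraries (108 CPM in control 1 and 120 CPM in BAL101553 1) was nearer to the level in the libraries labelled astrocytes than to that in BAL101553 2 (269 CPM).

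*Lgals8* was the exception. It had 45.3, 46.2 and 46.8 CPM in the libraries labelled astrocytes, just below the lowest BAL101553 library at 47.1 CPM. The log2 fold change of -0.14 (SE 0.084, 95% interval -0.33 to 0.06, adjusted p = 0.153) did not pass, and its interval spans ratios from 0.793 to 1.04. Its direction was not stable: it was 0.07 with scaling by total counts and 0.08 when genes were kept only with at least 10 counts in every library. Without BAL101553 1 it was -0.22 with an adjusted p of 0.0494.

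The other galectin family genes of the table were read as well. *Lgals7*, a prototype galectin known from stratified epithelia, was clearly present in the tumor cells. Its CPM was 17.1, 24.5 and 16.8 in control 1, 2 and 3, and 15.9, 52.7 and 45.1 in BAL101553 1, 2 and 3. BAL101553 2 and 3 thus lay above all controls, whereas BAL101553 1 lay below them. Its difference of 0.97 on the log2 scale (SE 0.40, adjusted p = 0.131) did not pass, but the adjusted p was 0.0190 without BAL101553 1, with a log2 fold change of 1.33, and 0.0392 by DESeq2. In the libraries labelled astrocytes *Lgals7* had 1, 2 and 2 reads, and the ratio of BAL101553 to these libraries was 662 (95% interval 283 to 2039, from 3331 against 5 reads, counting error only). Its mean level of 40.9 CPM per kilobase after BAL101553 lay between those of *Lgals3bp* and *Lgals9*. Its libraries overlapped those of *Lgals9* in both tumor groups and those of *Lgals3bp* after BAL101553. Within each tumor library, however, it lay below *Lgals3bp* and above *Lgals9*.

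*Lgalsl*, which encodes a galectin-related protein that lacks sugar binding, came closest to a call between the tumor groups. Its CPM was 33.9, 26.6 and 31.8 in the controls and 38.0, 58.0 and 44.4 after BAL101553. The groups did not overlap, and the log2 fold change of 0.61 (SE 0.18) had an adjusted p of 0.0533. The adjusted p ranged from 0.0133 by DESeq2 to 0.142 over the 15 alternatives, and was 0.0425 without BAL101553 1, with a log2 fold change of 0.74. In the libraries labelled astrocytes *Lgalsl* had 56.6, 53.6 and 54.7 CPM, within the range of the BAL101553 libraries (log2 fold change 0.25, adjusted p = 0.132). This difference passed under 3 of the 15 alternatives: scaling by total counts (0.46, adjusted p = 0.0170), at least 10 counts in every library (0.47, adjusted p = 0.0179), and without BAL101553 2 (0.41, adjusted p = 0.00401).

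The remaining genes, *Lgals2*, *Lgals4*, *Lgals6*, *Lgals12* and *Grifin*, were at 0 to 6 reads in each tumor library and were not tested between the tumor groups. Some were detected at low levels in the libraries labelled astrocytes. *Lgals12*, known from adipocytes, had 63, 54 and 47 reads there and 0 in all 6 tumor libraries, so that it was at least 15.0-fold higher than in the BAL101553 libraries when 3 reads per library were taken as the floor. *Lgals2* had 39, 24 and 23 reads against 1, 2 and 2 in BAL101553 libraries, a ratio of 17.3 (95% interval 7.14 to 54.7, from 86 against 5 reads, counting error only). Of its exon bases, 38 (6.42%) overlap *Cdc42ep1* on the other strand, so reads from these bases could belong to either gene. *Lgals4* had 38, 31 and 39 reads against 4, 6 and 6, a ratio of 6.80 (95% interval 4.001 to 12.3, from 108 against 16 reads, counting error only). *Lgals4* and *Lgals6* are near-identical copies whose reads can be shared, and *Lgals6* had at most 1 read in any library. *Grifin*, a lens gene, had 16, 10 and 8 reads against 0 in all tumor libraries, at least 2.55-fold higher by the same floor. *Lgals2*, *Lgals4*, *Lgals7* and *Lgals12* stayed under 10 reads in every library of 1 of these groups and passed the filter on low counts only through the other, where they were high, so they are given by their reads and no count of calls is drawn from them.

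Genes that build, carry or sense the sugars bound by galectins were examined as lists. Galectin ligands are made by the branching and extending enzymes of N- and O-glycans. Of 12 such enzymes, 1 was called higher and 0 lower after BAL101553, against 8.64% and 6.09% of all tested genes. The median log2 fold change was -0.05 beside 0.02 over all genes. The gene called was *Gcnt1*, the core 2 enzyme that opens O-glycans to the extension that galectin-1 recognizes. Its CPM was 24.9, 42.6 and 25.1 in the controls and 70.3, 48.3 and 58.8 after BAL101553. The groups did not overlap, although control 2 came close to BAL101553 2. The log2 fold change was 0.94 (SE 0.23, adjusted p = 0.0348), but the adjusted p was 0.101 without control 1, 0.123 without control 3, 0.0835 without BAL101553 1, 0.0845 without BAL101553 3, and 0.0588 with the replicate number as a block.

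Counter-receptors are the glycoproteins that galectins are known to bind. Of 16 listed, 14 were tested between the tumor groups and 0 were called higher and 1 lower, with a median of -0.14. Over all tested genes, 8.64% were called higher and 6.09% lower. *Itgb1*, the β1 integrin chain, had 4797, 3942 and 4344 CPM in the controls and 2468, 2303 and 2310 CPM after BAL101553. All treated libraries lay far below all controls, with a log2 fold change of -0.88 (SE 0.11, adjusted p = 0.00728), and the call held under all 15 alternatives. *Havcr2*, which encodes the galectin-9 receptor TIM-3 and was singled out after its values had been seen, had 8.57, 5.99 and 9.51 CPM in control 1, 2 and 3 and 9.13, 2.29 and 2.77 CPM in BAL101553 1, 2 and 3. BAL101553 2 and 3 lay below all controls and BAL101553 1 within their range, and the log2 fold change of -0.76 (SE 0.50, adjusted p = 0.322) did not pass.

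Galectins 3 and 8 take part in the response to damaged endosomes and lysosomes. Of 10 listed partners, 9 were tested between the tumor groups. Of these, 0 were called higher and 1 lower (median -0.17), against 8.64% and 6.09% of all tested genes. *Tsg101*, an ESCRT subunit of membrane repair, had 90.2, 77.3 and 85.4 CPM in the controls and 57.1, 60.6 and 61.8 CPM after BAL101553. The log2 fold change was -0.49 (SE 0.093, adjusted p = 0.0185), with an adjusted p of 0.0630 without control 1 and 0.0780 without control 3.

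Of the 16 interferon-response genes, 1 was called higher and 0 lower after BAL101553 (median 0.12), against 8.64% and 6.09% of all tested genes. *Stat2*, a subunit of the interferon-stimulated transcription factor complex, had 26.3, 33.8 and 41.1 CPM in the controls and 47.1, 94.7 and 63.9 CPM after BAL101553. It was higher by 1.03 on the log2 scale (SE 0.26, adjusted p = 0.0390). Without control 1, 2 or 3 or BAL101553 2 or 3 the adjusted p was 0.114, 0.0900, 0.0849, 0.0549 or 0.0830.

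Against the libraries labelled astrocytes, the same lists differed more widely, in the setting in which 85.1% of all genes did. Over all tested genes, 46.3% were called higher and 38.9% lower. With at least 10 counts in every library, a stricter filter than any used for the lists, 9779 of 11873 genes were called. Of these calls, 50.6% were higher. Of the 12 glycan enzymes, 2 were higher there and 9 lower (median -1.61). The higher genes were *Mgat3*, the bisecting enzyme (log2 fold change 1.19, adjusted p = 0.00109), and *St6gal1*, a sialyltransferase whose product masks galactose from galectin-1 (0.98, adjusted p = 2.99e-05). The steepest falls were those of *Man2a1*, a mannosidase needed for complex N-glycans (-4.05), *B4galt1*, which adds the galactose itself (-3.67), and the branching enzyme *Mgat4a* (-3.11). Of 14 counter-receptors with at least 10 reads in a library of each group, 3 were higher and 9 lower (median -1.29), with *Lag3* at 3.41 and *Mertk* at 2.60, and with *Cd44* at -5.89, *Itgb1* at -3.63 and *Itga3* at -2.39. *Ptprc* (CD45) passed the filter only through the libraries labelled astrocytes, with 262, 629 and 300 reads against 2, 6 and 5 after BAL101553. It is also one of the 14 microglia markers, whose sums are given above, and CD45 was excluded in the tumor sort. Of 9 damage partners with at least 10 reads in a library of each group, 1 was higher and 6 lower (median -0.41). *Calcoco2*, whose human product is the autophagy receptor named above, passed the filter only through the libraries labelled astrocytes. It had 233 reads in these 3 libraries against 1 read in the 3 BAL101553 libraries and 0 in the controls. The ratio to BAL101553 was 235 (95% interval 41.7 to 9306, counting error only). *Tfeb* was higher by 2.49 and *Trim16*, a galectin-3 partner, lower at -3.80. *Prkaa1* (-1.56) and *Pdcd6ip* (-0.97) were also lower. Among the interferon-response genes the steepest falls were those of *Bst2* (-3.97), *Isg15* (-3.67) and *Ifit1* (-3.56).

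**Figure D5:**
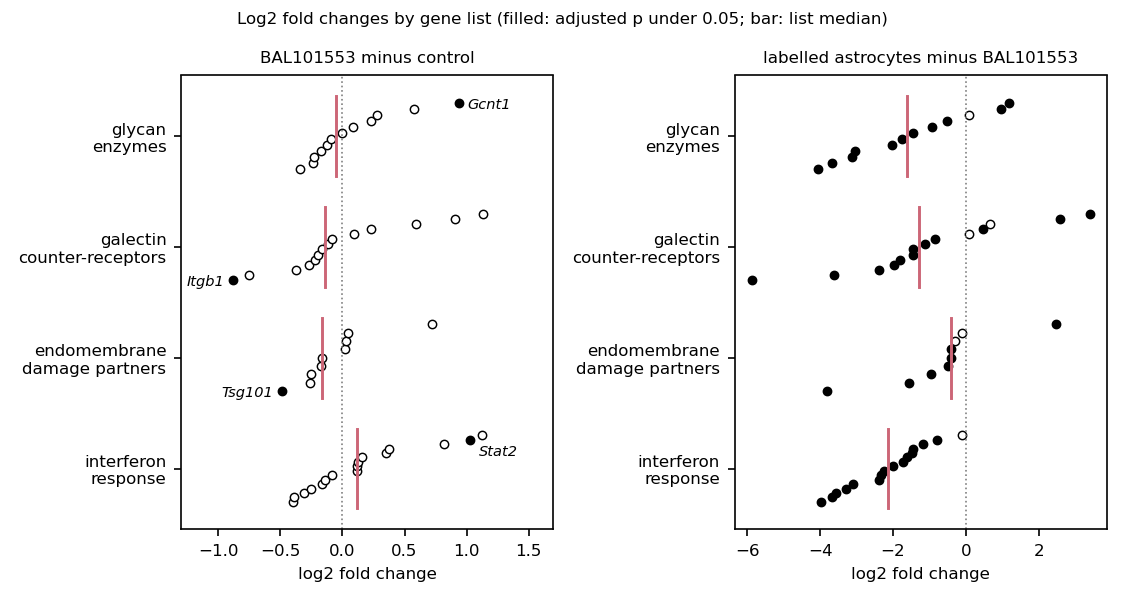
Log2 fold change (horizontal axis) of each tested gene of 4 lists (rows, ordered by value within a list), BAL101553 minus control on the left and libraries labelled astrocytes minus BAL101553 on the right; filled points have an adjusted p under 0.05 and the bar is the list median. On the left 4 genes pass (*Gcnt1*, *Itgb1*, *Tsg101*, *Stat2*), in a comparison where 14.7% of all tested genes did. On the right most pass, where 85.1% of all tested genes did. *Calcoco2* and *Ptprc*, with 1 and 13 reads in all BAL101553 libraries together, are not drawn on the right.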

How the data were processed

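The authors prepared stranded libraries, mapped 50-base reads with TopHat to mm10, and counted them with HTSeq (0.6.1 in the processing notes) and featureCounts. Values deposited by the authors are raw whole-number counts, in 1 table of 24421 genes and 9 libraries (3 per group); 0 columns were left unused. Total counts ranged from 22919523 to 34013875. A library at 0 was taken to allow up to 3 reads; groups with few reads were compared by a ratio with its counting interval.

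Samples were grouped by their labels. The members and gene lists were chosen with earlier results of these data known. Genes were kept with filterByExpr of edgeR 4.0.16 (R 4.3.3), scaled by TMM and compared with the quasi-likelihood test, fitted only on the groups compared, two-sided, p-values being adjusted by Benjamini and Hochberg's method across every tested gene and called under 0.05. Standard errors equal the absolute log2 fold change over the root of F; intervals are at 95%. Levels are CPM scaled over 9 libraries, divided by GENCODE vM21 exon unions where given per kilobase. Named genes were the members, the other galectin family genes, at most 3 genes per list and direction with the largest called, non-overlapping change, and the 3 nearest profiles per member; genes named beyond these only describe a list or its markers. Ratios of reads carry exact intervals that cover counting error only. Alternatives were DESeq2 1.42.0, the exact test, limma-trend (limma 3.58.1), 2 other scalings, 2 other filters, all 9 libraries in one model, the replicate number as a block and each library left out. List counts without genes under 10 reads in every library of a group were added after seeing the data. Scripts were tested on simulated data. A gene counted in the lists is not reported singly here.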

Additional observations from a re-analysis of the deposited data

How the results depend on the processing

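Of 75 member values under the 15 alternatives to the BAL101553 and control comparison, 71 kept their direction and their side of the threshold and 4 turned sign, in each case when 1 library was left out. These were *Lgals3* without control 2 (-0.0015) and without BAL101553 2 (-0.093; range over libraries left out -0.093 to 0.27), and *Lgals3bp* without control 1 (-0.12) and without BAL101553 2 (-0.25; range -0.25 to 0.36). In the comparison with the libraries labelled astrocytes 72 of 75 held, and the exceptions were *Lgals8* with total library size (0.066), with at least 10 counts in every library (0.085), and in its range over libraries left out (-0.22 to -0.10), where -0.22 passed. The cause was not tested. Over all genes, the 1860 calls between the tumor groups became 2832 with DESeq2 and 3022 with all 9 libraries in one model, and 193 (without control 3) to 1712 with 1 library left out; they were 458 without control 1, 668 without BAL101553 3 and 1133 without BAL101553 1. The 13039 calls against the BAL101553 libraries stayed between 12503 and 13461 with 1 library left out. Leaving 2 libraries in a group assumes that they vary as the others do. Libraries with the same number did not deviate together in every pair (correlations of 0.14, 0.01 and 0.15 between tumor groups), and control 2 correlated best with BAL101553 3. With the replicate block, 1371 genes were called between the tumor groups and *Lgals9* gave 0.38 (adjusted p = 0.109). Genes near 0 in 1 group (*Lgals2*, *Lgals4*, *Lgals7*, *Lgals12*, *Calcoco2*, *Ptprc*) had no value with at least 10 counts in every library.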
